A study of Mus musculus with 12 samples.

Results

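B cells that had been activated but had not yet divided were compared between 3 h and 33 h after lipopolysaccharide (LPS), that is, between the first wave of signalling and the eve of the first division. The comparison used 4 of the 12 RNA-Seq libraries of the series, chosen by their labels alone: 2 biological replicates at 3 h and 2 at 33 h. All 4 were of spleen B cells from male mice on a C57BL/6 Pep3b background (C57BL/6 in the labels) aged 6 to 12 weeks, isolated by negative selection, stained with the division dye CellTrace Violet (CTV) and cultured with 25 μg/ml LPS from Salmonella typhosa. At each time the authors sorted TCRβ-CD69+ B cells in the CTVhighest gate, so that both stages held activated cells of generation zero. Genotype was the same at both stages, and every 33 h library came from an LPS culture, so time after LPS and time in culture cannot be told apart. The 2 libraries of naive B cells and the 2 at 10 h are given where they place a value, and the day 4 populations entered only the shared estimate of the spread.

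LPS binds Toll-like receptor 4 and signals through NF-κB and MAP kinases, which switch on immediate early genes without new protein synthesis, together with inhibitors that shut the same signals down again. A resting B cell then grows through a long first G1 phase, in which MYC drives the building of ribosomes, before cyclin D and cyclin E kinases free E2F factors from retinoblastoma proteins. E2F targets copy the genome in S phase. Genes for mitosis are held back until later by the DREAM complex at CHR elements and are then switched on by B-MYB and FOXM1.

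Total counts were 23026619 and 37947217 at 3 h and 60585587 and 36194490 at 33 h, and 3 counts, the floor used for a count of 0, were 0.0495 to 0.130 CPM in these libraries, for counting error only. Levels are given as RPKM (counts scaled to exon length and to TMM-adjusted library size) in replicates 1 and 2, in that order. Differential expression (DE) was called by glmTreat of edgeR against a fold of 1.5, at a Benjamini-Hochberg adjusted p-value under 0.05, and fold changes are on the log2 scale, 33 h minus 3 h. Of 12750 tested genes, 5478 were DE (43%). At 33 h 3028 were higher (23.7%) and 2450 were lower (19.2%), and the quasi-likelihood F-test with no fold threshold called 8992 (70.5%). Counts of higher and lower genes in the lists below are to be read beside these shares of all tested genes. The median change of all tested genes was 0.05 and the median size of a change, in either direction, was 0.79. DE genes had a median size of 1.55, and 1245 rose and 651 fell by more than 4-fold, with 343 and 115 beyond 16-fold. Scaling bears on this split. Scaled by library size alone, 3853 genes were higher and 1660 lower, 69.9% of calls upwards in place of 55.3%, and the median of all genes moved by 0.27. With 2 libraries a stage, the smallest p of an exact two-sided permutation test is 0.333, and the p-values rest on the spread shared across genes and all 12 libraries. In bulk RNA, fewer cells that express a gene and less RNA per cell cannot be told apart.

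The sorted cells carried B cell transcripts at both times. The summed level of 10 B cell markers was 6920 and 7240 CPM at 3 h and 6540 and 5260 CPM at 33 h. That sum covers opposed changes, since 4 of the 10 fell and 1 rose (median log2 fold change -0.50). Fcer2a, the largest fall, went from 1421 and 1652 to 282 and 181 CPM, and Cd22, which rose, from 128 and 139 to 983 and 714 CPM. T cell markers summed to 24.4 and 31.1 CPM at 3 h and 30.2 and 25.2 CPM at 33 h, of which Lck gave 22.5 to 29.6 CPM, with Cd3e, Cd4 and Thy1 at 0 counts in all 4 libraries. Of 12 T cell markers tested 2 rose, the larger change being in Zap70 (0.261 and 0.0791 to 1.30 and 1.13 CPM), and Trac fell (1.52 and 1.03 to 0.528 and 0.636 CPM, a call lost under 3 of 15 alternatives). Myeloid markers summed to 2.56 and 4.88 CPM at 3 h and 29.5 and 21 CPM at 33 h, of which Itgam gave 17.9 and 13.5 and Adgre1 10.5 and 6.66 CPM at 33 h. Both rose, as did Fcer1g, from 0.0869 and 0.237 to 0.941 and 0.718 CPM, which makes 3 of 14 tested. Of the 15 myeloid markers 13 were under 1 CPM in all 4 libraries and 7 were at 0 counts, among them Cd14, S100a8, Mpo and Elane. NK markers summed to 4.04 and 5.17 CPM at 3 h and 1.58 and 1.22 CPM at 33 h, and erythroid markers were at 0.174 to 1.63 CPM. Their part in the results below was not tested.

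Landmark genes come first: an immediate early gene, a growth regulator and a mitotic kinase. Nr4a1 (Entrez 15370, chr15:101253902-101274795 of mm10) encodes NUR77, an orphan nuclear receptor induced within minutes of stimulation. It stood at 495 and 308 RPKM at 3 h and 8.61 and 5.56 RPKM at 33 h, against 10.6 and 12.1 RPKM at 10 h and 11.5 and 10.8 RPKM in naive cells. Both 33 h libraries thus lay below both naive ones, and Nr4a1 fell by 5.81 on the log2 scale from 3 h (standard error 0.33, adjusted p = 2.08e-07). Myc (Entrez 17869, chr15:61985341-61990361), the growth regulator, had 835 and 706 RPKM at 3 h and 74.2 and 78.5 RPKM at 33 h. Its level at 33 h was a small part of that at 3 h but remained above the 31.1 and 28.9 RPKM of naive cells (log2 fold change -3.33, standard error 0.12, adjusted p = 5.59e-10 for 33 h against 3 h). Plk1 (Entrez 18817, chr7:122159435-122169884), the kinase that drives entry into mitosis, had 0.607 and 0.805 RPKM at 3 h and 46.2 and 101 RPKM at 33 h. Naive cells, at 2.55 and 2.64 RPKM, lay above both 3 h libraries, and the rise to 33 h was 6.65 (standard error 0.39, adjusted p = 2.03e-07). The libraries at 33 h differed by more than those at 3 h, with replicate 2 at the higher level.

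**Figure D1:**
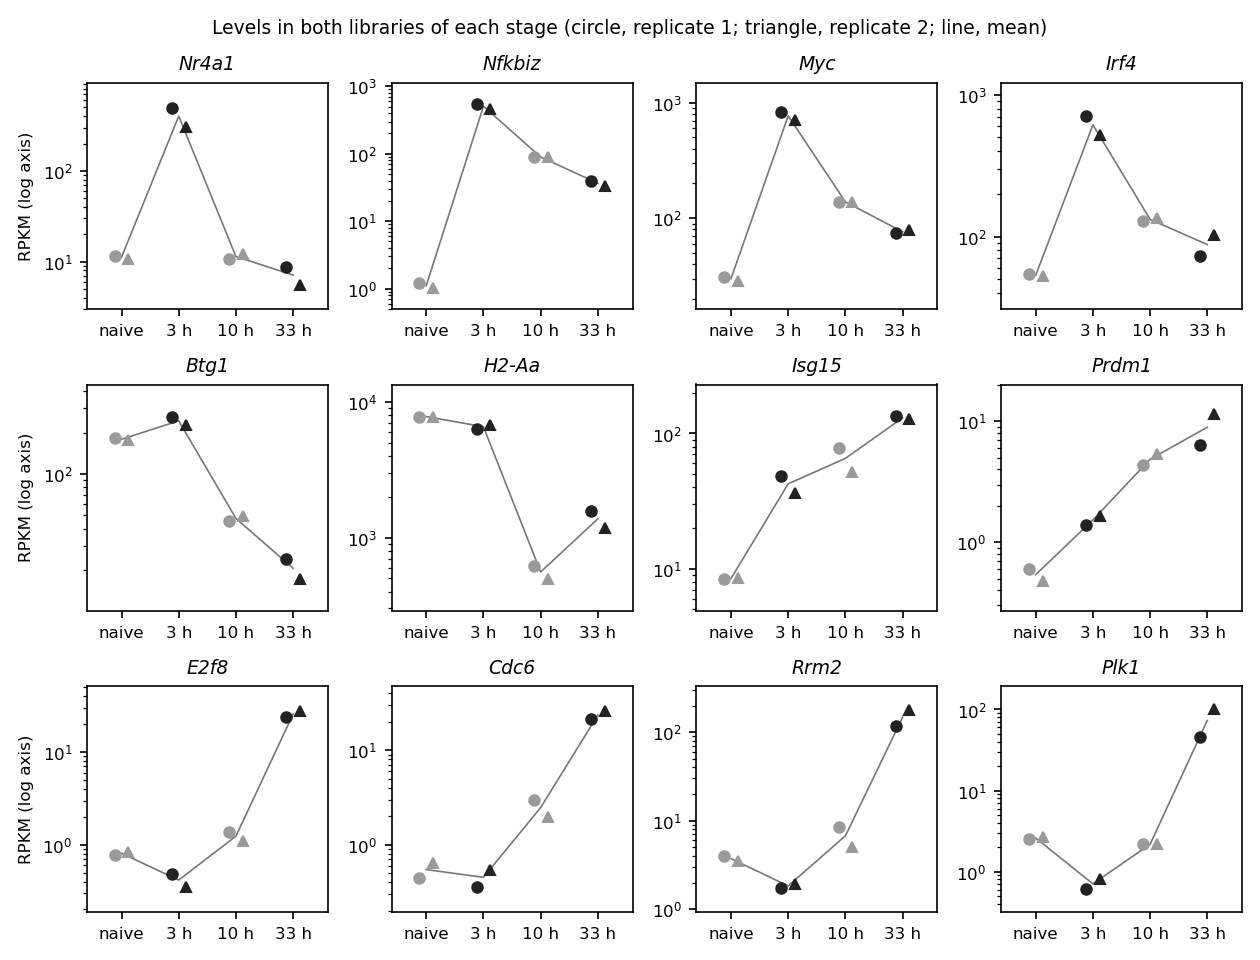
RPKM (log axis) of 12 genes in naive B cells and at 3, 10 and 33 h after LPS, with replicate 1 as circles, replicate 2 as triangles and a line through the means; the 3 h and 33 h libraries are black. Nr4a1, Nfkbiz, Myc and Irf4 peaked at 3 h, H2-Aa was lowest at 10 h, and Plk1 went from 0.607 and 0.805 RPKM at 3 h to 46.2 and 101 at 33 h.

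Known motifs were counted in the promoters of every list, and some pairs of motif and list are given here. RefSeq windows of GRCm38.p6 from 250 bases before to 50 after an annotated start were available for 9919 of the 12750 tested genes, 12567 windows in all, and motif letters were looked for on both strands. The CArG box, the element bound by serum response factor, was in 7 of 39 windows of immediate early genes (17.9%, from 4 genes, since Egr2 has several starts), against 1.24% of windows of tested genes. The κB site was in 16 of 39 windows of genes for NF-κB subunits and feedback (41%, against 10.4%). The E2F 8-mers TTTCCCGC, TTTGGCGC, TTTCGCGC and TTTGCCGC were in 20 of 61 windows of DNA replication genes (32.8%, against 3.95%) and in 1 of 47 windows of mitotic genes (2.13%). They were also in 7 of 48 windows of kinetochore and spindle genes (14.6%) and in 5 of 19 of condensin, cohesin and topoisomerase II genes (26.3%). CHR letters, TTTGAA or TTCGAA, were in 31 of 47 windows of mitotic genes (66.0%) and in 27 of 48 of kinetochore and spindle genes (56.2%), against 14.2% of windows of tested genes. Other pairs stood out as well. The κB site and the E-box letters CACGTG were each in 17.9% of windows of immediate early genes (against 10.4% and 9.91%). The CRE letters TGACGTCA were in 10.3% (against 3.13%), and CHR letters were in 45.3% of histone windows. Over all genes higher at 33 h the shares were 5.68% for the E2F 8-mers and 18.2% for CHR letters. Over all lower genes they were 1.36% for the CArG box and 12.9% for the κB site. Over all 32851 windows of the table the shares were 1.63% for the CArG box, 8.46% for the κB site, 2.26% for the E2F 8-mers and 19.2% for CHR letters. These are matches of letters and were not tested, and some E2F 8-mers overlap each other across strands.

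The stretches below show these letters in genes that changed, in the direction of transcription, with the motif named in brackets in capitals. Dusp5 (CArG boxes, bases -100 to -41 from the start, chr19:53529045-53529104, plus strand), Nfkbia (κB site, -80 to -1, chr12:55492648-55492727, minus strand) and the first of 2 windows of Tnfaip3 (κB sites, -140 to -1, chr10:19015411-19015550, minus strand) stand for genes lower at 33 h. Cdc6 (E2F, -150 to -91, chr11:98908001-98908060, plus strand) and Mcm5 (2 overlapping E2F matches, 60 bases from -170, chr8:75109339-75109398, plus strand) stand for replication genes. Cdk1 (CHR, -90 to -1, chr10:69352913-69353002, minus strand), Ube2c (CHR, -60 to -1, chr2:164769869-164769928, plus strand), Cdc20 (CHR, -60 to -1, chr4:118437344-118437403, minus strand) and Kif11 (CHR, -60 to -1, chr19:37376322-37376381, plus strand) stand for mitotic genes. In Plk1 the letters came after the start, at bases 31 to 36, and 26 bases around them are shown (chr7:122159450-122159475, plus strand).
Dusp5: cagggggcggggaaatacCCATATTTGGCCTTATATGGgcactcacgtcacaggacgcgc
Nfkbia: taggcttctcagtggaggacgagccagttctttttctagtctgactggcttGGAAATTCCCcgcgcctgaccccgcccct
Tnfaip3: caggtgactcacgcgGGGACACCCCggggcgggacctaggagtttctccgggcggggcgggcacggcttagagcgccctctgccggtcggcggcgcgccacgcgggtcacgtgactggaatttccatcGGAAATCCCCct
Cdc6: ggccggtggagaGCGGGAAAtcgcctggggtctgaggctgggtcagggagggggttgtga
Mcm5: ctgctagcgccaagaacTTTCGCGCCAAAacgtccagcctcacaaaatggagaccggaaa
Cdk1: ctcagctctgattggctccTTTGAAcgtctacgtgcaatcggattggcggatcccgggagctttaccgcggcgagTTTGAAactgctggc
Ube2c: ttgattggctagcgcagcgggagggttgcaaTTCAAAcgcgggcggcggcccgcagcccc
Cdc20: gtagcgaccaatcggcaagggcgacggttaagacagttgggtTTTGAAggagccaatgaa
Kif11: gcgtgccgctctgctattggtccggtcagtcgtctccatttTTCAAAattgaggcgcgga
Plk1: gttcccagcgccgcgTTTGAAttcgg

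**Figure D2:**
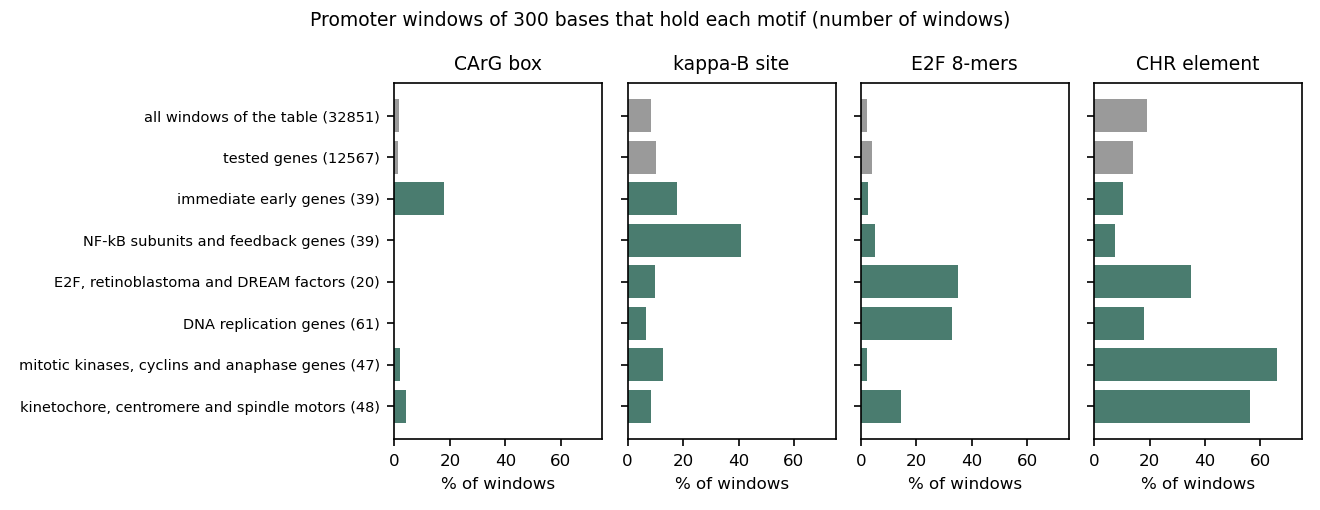
Share of promoter windows (300 bases, % of windows on the x axis, number of windows in brackets) that hold each of 4 motifs, for all windows of the table, for windows of tested genes (grey) and for 6 gene lists (green). The κB site is in 41% of windows of NF-κB genes, the E2F 8-mers in 32.8% of replication genes' and CHR letters in 66.0% of mitotic genes' windows.

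The immediate early genes ended the interval far below their 3 h level. Of 36 tested, 29 were lower at 33 h and 2 were higher, with a median of -2.15 (0.05 for all tested genes), and at 10 h the median was already -2.29. Nr4a1 and its relatives were among the largest falls. Nr4a3 had 80.5 and 44.4 RPKM at 3 h and 1.31 and 1.14 RPKM at 33 h (log2 fold change -5.66, standard error 0.27, adjusted p = 5.84e-09), and Nr4a2, lower throughout, had 1.82 and 1.18 RPKM at 3 h and 0.0618 and 0.0511 RPKM at 33 h (-4.66). Of the AP-1 genes, Junb went from 462 and 395 to 89.03 and 77.9 RPKM (log2 fold change -2.36, standard error 0.18, adjusted p = 1.13e-06), and Fosb from 1.68 and 1.44 to 0.0639 and 0.06799 RPKM (-4.55). Fos itself was already low at 3 h, at 2.72 and 2.43 RPKM, and lay at 0.816 and 0.313 at 33 h, a change of -2.09 that was not DE under 3 of 14 alternatives. The zinc finger genes Egr2 (-1.92) and Egr3 (-1.69) fell, with Egr3 at 56.9 and 44.7 RPKM at 3 h and 17.7 and 13.6 RPKM at 33 h. Egr2 lost its call under 2 of 15 alternatives. Egr1 had 37.9 and 27.1 RPKM at 3 h and 33.2 and 15.5 RPKM at 33 h and was not DE (-0.41, adjusted p = 0.896), and its replicates at 33 h lay far apart. Feedback phosphatases of the MAP kinases fell too. Dusp2 had 369 and 269.8 RPKM at 3 h and 59.9 and 45.9 RPKM at 33 h (-2.59), and Dusp5, whose CArG boxes are shown above, 115 and 89.2 RPKM at 3 h and 3.39 and 3.38 RPKM at 33 h (log2 fold change -4.91, standard error 0.27, adjusted p = 4.26e-08). Against this direction, Atf3, a stress-induced repressor, rose from 2.06 and 2.69 to 13.3 and 12.8 RPKM (2.44), and Nfil3, a basic leucine zipper repressor, from 4.03 and 3.91 to 16.8 and 18.3 (2.15). In the 3 h libraries, replicate 1 was the higher for 34 of the 36 genes, by a median log2 ratio of 0.33, whereas it was the higher for 48.4% of all tested genes. With each of the 4 libraries left out in turn the list median was -2.31 to -1.98.

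More genes for NF-κB subunits and feedback fell than rose. Of 37 tested, 24 were lower and 2 higher at 33 h, with a median of -1.54. Nfkbiz, which encodes the nuclear cofactor IκBζ, went from 545 and 468 RPKM to 39.2 and 33.8 (log2 fold change -3.79, standard error 0.12, adjusted p = 1.84e-10), and stayed above the 1.103 RPKM (mean) of naive cells. Nfkbid, for IκBNS, had 530.4 and 315 RPKM at 3 h and 34.1 and 33.9 RPKM at 33 h (-3.63). The inhibitor gene Nfkbia had 940.1 and 784 RPKM at 3 h and 230.5 and 203 RPKM at 33 h (-1.99), and Tnfaip3, for the ubiquitin editor A20, 235 and 162 RPKM at 3 h and 25.9 and 21.8 RPKM at 33 h (-3.06). For each of these 4 genes both libraries at 33 h lay far below both at 3 h. Traf1, an adaptor of TNF receptors, changed less, from 202 and 212 to 99.7 and 103 RPKM (-1.03, adjusted p = 8.51e-05), and remained above its naive mean of 8.23. Bcl3 had 125 and 124 RPKM at 3 h and 82.5 and 71.1 RPKM at 33 h and was not DE (adjusted p = 0.088). The 2 exceptions were Tlr2 (0.85) and Tnip3 (1.95), and neither call was stable, being lost under 6 of 15 and 8 of 14 alternatives.

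Secreted signals split by gene. Of 26 cytokine and chemokine genes, 11 fell and 3 rose, with a median of -0.97, or -0.56 without 3 h replicate 2. A minimum of 10 counts in each of the 12 libraries left 8 of the 26 genes, of which 2 fell and 1 rose, with a median of -0.52. Il1b had 109 and 241 counts at 3 h and 2 and 0 counts at 33 h, a level 336.5-fold lower. The exact 95% interval was 92.45 to 2789 and, like those given below, covers counting error only, not the spread between replicates. The chemokine Ccl4 went from 35.3 and 38.6 RPKM to 1.33 and 2.64 (log2 fold change -4.28, standard error 0.28, adjusted p = 5.92e-08) and its neighbour Ccl3 from 24.9 and 23.8 to 3.01 and 6.86 (-2.34). Tnf had 29.4 and 31.3 RPKM at 3 h and 12.9 and 10.7 RPKM at 33 h (-1.36), and Ltb, for lymphotoxin β, 794 and 654 RPKM at 3 h and 82.1 and 47.8 RPKM at 33 h (-3.47). Ltb was the only one of these 5 that was already high in naive cells, at 867 RPKM on average. The genes that rose were Il6, from 0.564 and 1.36 to 6.82 and 7.82 RPKM (2.82), Ccl22, from 4.002 and 3.86 to 12.1 and 22.8 (2.15), and Ccl5, from 0.419 and 0 to 10.8 and 13.8 (6.22, but 4.88 to 10.87 over the alternatives). All 3 were higher still or as high at 10 h, with means of 14.6, 65.9 and 14.98 RPKM. Il10 had 9.48 and 11.3 RPKM at 3 h and 15.4 and 22.02 RPKM at 33 h and was not DE (0.84, adjusted p = 0.179).

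Surface genes of the activated state fell as well, 21 of 31 tested against 4 that rose, with a median of -1.89. Cd69 had 269 and 263 RPKM at 3 h and 16.9 and 14.6 RPKM at 33 h (log2 fold change -4.08, standard error 0.20, adjusted p = 1.51e-08), although the cells of both stages had been gated on CD69 protein. Il2ra, for the IL-2 receptor α chain, went from 159 and 141 to 9.06 and 8.14 RPKM (-4.12). The costimulatory genes Cd86 and Cd83 had 117 and 116 RPKM at 3 h and 17.2 and 14.3 RPKM at 33 h, and 1885 and 1579 RPKM at 3 h and 209.5 and 149 RPKM at 33 h, respectively (-2.89 and -3.27). Cd80 was not DE (1.25 and 1.72 RPKM at 3 h and 1.79 and 2.83 RPKM at 33 h, adjusted p = 0.432). Fcer2a, the low-affinity IgE receptor of follicular B cells, fell from 774 and 873 to 125 and 79.3 RPKM (-3.01), and Fas from 17.1 and 12.1 to 3.02 and 1.85 (-2.55). The 4 that rose were Lag3 (4.01), Cd38 (2.63, 4.91 and 4.21 to 32.7 and 23.3 RPKM), Ly6a (2.04) and Cd24a (1.66, 227 and 216 to 635 and 764 RPKM). Tfrc, the transferrin receptor, had 93.7 and 76.3 RPKM at 3 h and 50.8 and 66.8 RPKM at 33 h and was not DE (-0.53, adjusted p = 0.593), far above its naive mean of 2.83.

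**Figure D3:**
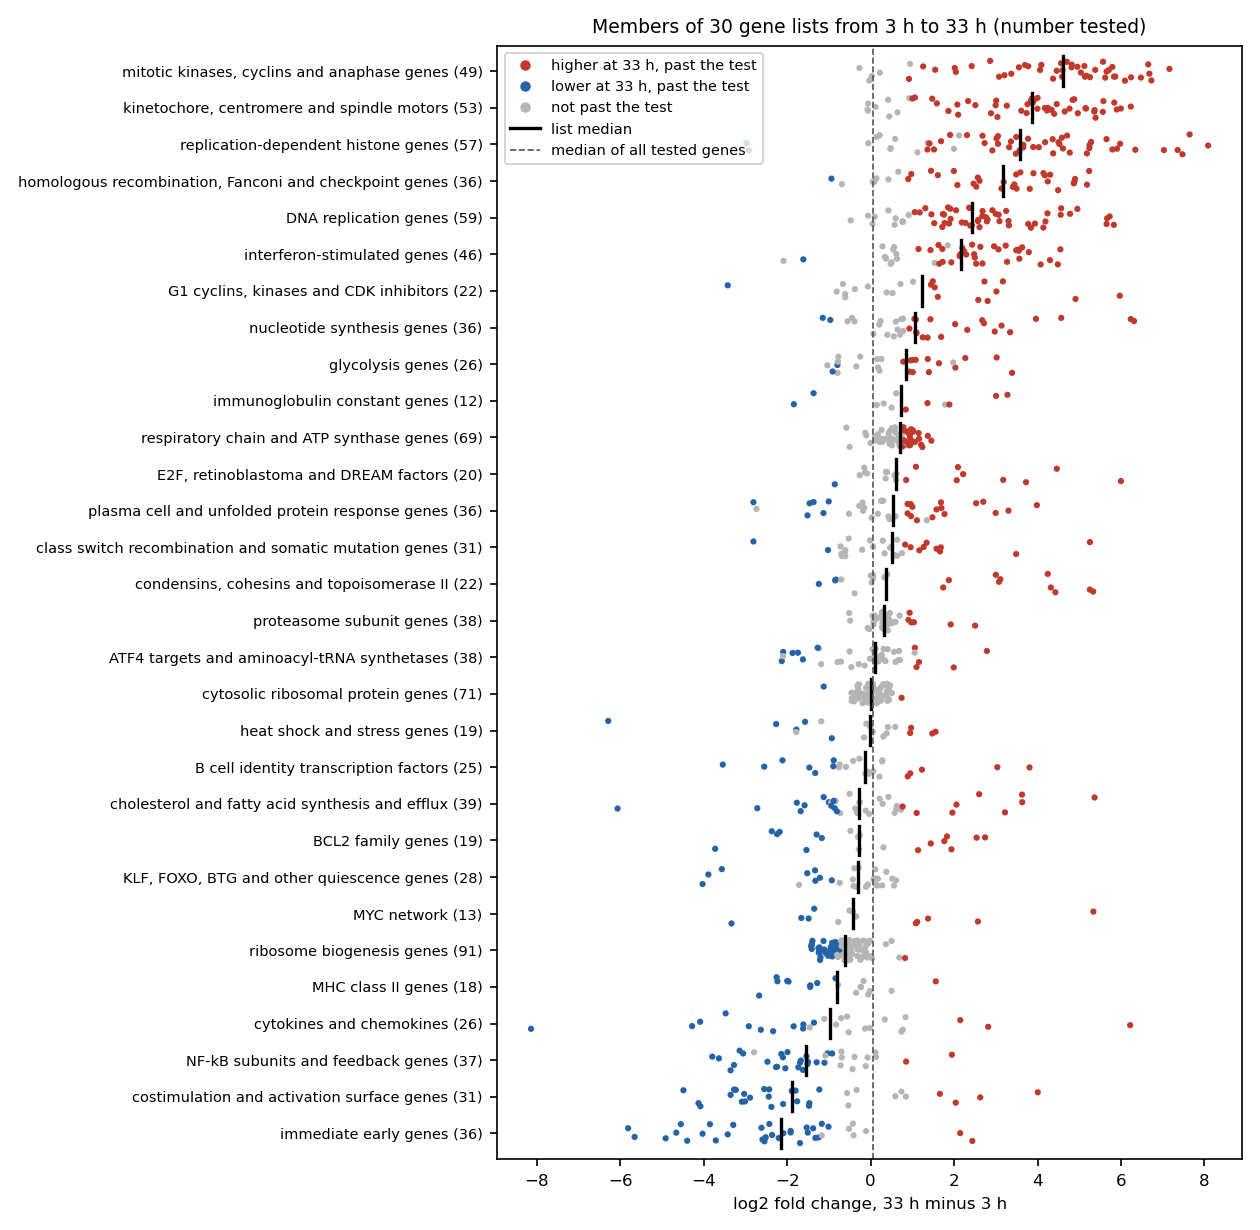
Log2 fold change from 3 h to 33 h (x axis) of every tested member of 30 gene lists, ordered by median (black bars), with DE members red where higher and blue where lower at 33 h, others grey and the number tested in brackets. Mitotic genes (median 4.60) lie at the top and immediate early genes (median -2.15) at the bottom, and cytosolic ribosomal protein genes cluster at 0.00.

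The MYC network was taken apart gene by gene. Of 13 tested, 5 rose and 4 fell (38.5% and 30.8%, against 23.7% and 19.2% of all tested genes), with a median of -0.43 (-0.15 with library size alone). Mxd3, a MAX partner that opposes MYC and is known from S phase, rose from 0.472 and 0.202 to 12.7 and 12.3 RPKM (log2 fold change 5.34, standard error 0.25, adjusted p = 2.86e-09), and Mxd4 from 12.7 and 9.69 to 37.2 and 20.1 (1.38), a call lost under 1 of 15 alternatives. Besides Myc, the genes that fell were Mnt (-1.66), Mxi1 (-1.49) and Mlxip (-1.35). Max itself had 79.8 and 80.6 RPKM at 3 h and 62.6 and 63.4 RPKM at 33 h and was not DE (-0.35, adjusted p = 1).

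The ribosome assembly genes that passed the test nearly all fell. Of 91 tested, 33 fell, 1 rose and 57 did not pass, with a median of -0.61, but with library size alone 17 fell and the median was -0.34. Rrs1, a factor of the large subunit, went from 201 and 204 to 72.2 and 80.3 RPKM (log2 fold change -1.41, standard error 0.084, adjusted p = 2.98e-07). Polr1b, the second largest subunit of RNA polymerase I, went from 104 and 128 to 47.7 and 52.95 (-1.20), and Nol8 fell by 1.42 on the log2 scale. Both lay above their naive means at 33 h, 16.3 and 12.7 RPKM. Ncl, for nucleolin (752 and 722 RPKM at 3 h and 467 and 583 RPKM at 33 h, -0.49), and Nop56 (-0.49), a core protein of box C/D particles, did not pass the test. Nop10, of the H/ACA particles, was the member that rose (0.82), a call lost under 8 of 15 alternatives. At 33 h replicate 2 was the higher for 88 of the 91 genes, by a median of 0.20. Of cytosolic ribosomal protein genes, 1 of 71 was higher and 1 lower with a median of 0.00 (-0.04 to 0.28 over the alternatives). Rps2 (0.74, a call lost under 3 of 15 alternatives) and Rps27 (-1.12) were those DE, and both have processed copies in the genome that can share reads. Rps6 had 249 and 268 RPKM at 3 h and 243 and 225 RPKM at 33 h.

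Of 38 targets of ATF4 and aminoacyl-tRNA synthetases 5 rose and 6 fell (13.2% and 15.8%, each below the 23.7% and 19.2% of all tested genes), with a median of 0.11 that took either sign over the alternatives (-0.08, with 11 down, without 3 h replicate 1, and 0.48, with 14 up, without 3 h replicate 2). Asns, the asparagine synthetase, rose from 1.71 and 4.65 to 9.27 and 17.6 RPKM (1.99), and Pycr1, of proline synthesis, by 2.79. Ddit3, for the stress factor CHOP, had 11.7 and 19.5 RPKM at 3 h and 3.74 and 3.44 RPKM at 33 h (-2.13). At 3 h replicate 2 was the higher for most of this list: replicate 1 was the higher for 2 of 38 genes, and the median log2 ratio of replicate 1 to 2 was -0.53.

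The genes of the G1 to S decision that passed the test mostly rose. Of 22 cyclin, kinase and inhibitor genes 11 rose and 1 fell, with a median of 1.23. The D cyclins parted. Ccnd2, induced early, had 321 and 274 RPKM at 3 h and 179.6 and 210.1 RPKM at 33 h and was not DE (-0.61, adjusted p = 0.341), whereas Ccnd3 rose from 23.005 and 30.4 to 178 and 177 RPKM (log2 fold change 2.73, standard error 0.14, adjusted p = 1.04e-08). Their kinase gene Cdk4 rose from 94.1 and 119.8 to 269 and 315 (1.45), and Cdk6 was not DE (17.02 and 12.8 RPKM at 3 h and 7.52 and 9.44 RPKM at 33 h). Cdk6 gained a call under 3 of 15 alternatives. Ccne1, the cyclin that starts S phase with CDK2, had 0.485 and 0.705 RPKM at 3 h and 35.7 and 42.02 RPKM at 33 h (5.97), the largest rise of the list, and Ccne2 had 0.607 and 0.623 RPKM at 3 h and 5.37 and 5.74 RPKM at 33 h (3.17). Of the inhibitors, Cdkn1c (p57) fell, 1.81 and 1.76 to 0.186 and 0.132 RPKM (-3.42). Cdkn2a, chosen after its values were seen, went the other way. It had 1 and 2 counts at 3 h and 92 and 86 counts at 33 h, a ratio of 30.9-fold (exact 95% interval 10.4 to 151). Cdkn1a (p21) had 3.74 and 3.598 RPKM at 3 h and 3.43 and 6.27 RPKM at 33 h and was not DE between these times (0.38), although its mean at 10 h was 26.6 RPKM. Cdkn1b (p27) had 11.9 and 7.33 RPKM at 3 h and 9.43 and 8.73 RPKM at 33 h (-0.07, adjusted p = 1).

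Of 20 genes for E2F, retinoblastoma and DREAM proteins, 9 rose and 1 fell, with a median of 0.62. The activator E2f1 went from 4.12 and 2.76 to 46.4 and 42.9 RPKM (log2 fold change 3.72, standard error 0.18, adjusted p = 4.72e-09) and E2f3 from 5.195 and 4.66 to 9.62 and 11.3 (1.09). The atypical repressors, themselves E2F targets, started near nothing. E2f7 had 0.163 and 0.126 RPKM at 3 h and 3.04 and 3.19 RPKM at 33 h (4.46) and E2f8 0.483 and 0.347 RPKM at 3 h and 23.8 and 27.7 RPKM at 33 h (6.00). E2f2 was not DE over the whole interval, at 25.9 and 24.2 RPKM at 3 h and 42.1 and 34.9 RPKM at 33 h, yet its mean at 10 h was 7.71 RPKM: it fell and rose again (-1.70 from 3 h to 10 h and 2.32 from 10 h to 33 h). Of the pocket proteins, Rbl1 (p107) rose (3.79 and 3.41 to 15.4 and 15.2 RPKM, 2.09), and Rbl2 (p130) did not pass (0.61). E2f4, their usual partner in resting cells, did not pass either (73.96 and 84.8 RPKM at 3 h and 109 and 127 RPKM at 33 h), and E2f5 fell (-0.86, a call lost under 6 of 15 alternatives). The mitotic activators Mybl2 (B-MYB) and Foxm1 had 6.91 and 8.14 RPKM at 3 h and 66.2 and 70.6 RPKM at 33 h (3.18), and 4.56 and 4.06 RPKM at 3 h and 18.7 and 21.3 RPKM at 33 h (2.22).

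The machinery of DNA replication rose nearly as a whole, 50 of 59 tested with none lower, at a median of 2.43. Cdc6, which loads the MCM helicase, had 0.356 and 0.545 RPKM at 3 h and 21.4 and 25.8 RPKM at 33 h (log2 fold change 5.66, standard error 0.25, adjusted p = 2.73e-09). Helicase subunits were already abundant at 3 h and rose less, Mcm5 from 67.7 and 60.1 to 222 and 248 RPKM (1.88) and Mcm2 from 36.8 and 34.4 to 134 and 135 (1.92). Factors that fire origins and guard forks started low. Mcm10 had 0.909 and 0.818 RPKM at 3 h and 39.3 and 47.9 RPKM at 33 h (5.67), Cdc45 1.79 and 1.84 RPKM at 3 h and 46.6 and 53.5 RPKM at 33 h (4.78) and the checkpoint mediator gene Clspn 0.615 and 0.468 RPKM at 3 h and 29.5 and 30.7 RPKM at 33 h (5.83). Pcna, the sliding clamp, had 101 and 98.3 RPKM at 3 h and 261 and 286 RPKM at 33 h (1.46), its loader subunit Rfc3 8.397 and 10.8 RPKM at 3 h and 50.1 and 49.99 RPKM at 33 h (2.37), and Chaf1b, of the histone chaperone CAF-1, 3.58 and 4.33 RPKM at 3 h and 53.8 and 55.7 RPKM at 33 h (3.78). Cdt1, the other licensing factor, was an exception at 75.4 and 57.4 RPKM at 3 h and 46.05 and 49.2 RPKM at 33 h (-0.48, adjusted p = 0.819).

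Supply of nucleotides followed in part, 20 of 36 genes higher and 2 lower, with a median of 1.07. Rrm2, the limiting subunit of ribonucleotide reductase, rose from 1.74 and 1.93 to 118 and 176 RPKM (log2 fold change 6.31, standard error 0.28, adjusted p = 1.15e-08), Tyms from 0.278 and 0.3104 to 20.3 and 24.7 (6.24) and Tk1 from 8.27 and 7.82 to 48.8 and 56.8 (2.72). These serve deoxynucleotides. Of the general synthesis genes, Cad had 25.3 and 38.9 RPKM at 3 h and 98.8 and 109 RPKM at 33 h (1.69) and mitochondrial Shmt2 78.9 and 112 RPKM at 3 h and 207 and 247 RPKM at 33 h (1.25), and both had reached that level by 10 h, with means of 121 and 296 RPKM. Ppat, the first step of purine synthesis, did not pass (63.6 and 62.9 RPKM at 3 h and 40.2 and 45.97 RPKM at 33 h), nor did Mthfd2 (37.4 and 70.6 RPKM at 3 h and 84.01 and 102 RPKM at 33 h). Mthfd2 gained a call under 3 of 15 alternatives. The genes that fell were Impdh1 (-1.15) and Tk2 (-0.97), the mitochondrial thymidine kinase, whose call was lost under 3 of 15 alternatives.

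Mitotic genes had the highest median of the lists. Of 49 for mitotic kinases, cyclins and anaphase, 44 rose and none fell, with a median of 4.60 (4.30 without 33 h replicate 2 and 4.89 without replicate 1). Cdk1 had 0.604 and 0.815 RPKM at 3 h and 32.04 and 53.2 RPKM at 33 h (log2 fold change 5.86, standard error 0.32, adjusted p = 5.57e-08) and its partners Ccna2 and Ccnb1 had 1.69 and 2.301 RPKM at 3 h and 93.4 and 132 RPKM at 33 h (5.79), and 0.193 and 0.411 RPKM at 3 h and 14.9 and 34.96 RPKM at 33 h (6.24). The Aurora kinases rose, Aurka from 2.02 and 1.896 to 29.3 and 56.7 RPKM (4.46) and Aurkb from 1.42 and 1.48 to 64.5 and 79.02 (5.62). Ube2c, the ubiquitin-conjugating enzyme of the anaphase-promoting complex, had 1.92 and 1.199 RPKM at 3 h and 81.3 and 184 RPKM at 33 h (6.48), and its activator Cdc20 had 4.97 and 5.12 RPKM at 3 h and 39.4 and 92.3 RPKM at 33 h (3.70). Fzr1 (CDH1), the activator that serves in G1, was not DE at 67.5 and 62.7 RPKM at 3 h and 47.3 and 60.98 RPKM at 33 h (-0.27, adjusted p = 1). Cdc25c, the phosphatase that activates CDK1, rose most, by 7.16, from 0.0574 and 0.0677 to 7.11 and 11.8 RPKM. Hmmr, of the spindle poles (6.68), Nek2, of the centrosome (6.09), Birc5, or survivin (5.71), Bub1, of the spindle checkpoint (5.83), and Mki67, which coats mitotic chromosomes (3.19 and 2.73 to 84.1 and 122 RPKM, 5.12), all rose. The 33 h libraries were not alike here. Replicate 2 was the higher for 48 of the 49 genes, by a median log2 ratio of 0.49, against 46.9% of all tested genes and a median of -0.01. For replication genes it was the higher for 50 of 59, by 0.10. 

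Of 53 kinetochore, centromere and spindle genes 45 rose and none fell (median 3.87). Kif11, the motor that parts the spindle poles, went from 1.24 and 1.17 to 27.7 and 37.6 RPKM (4.77), Cenpe from 0.521 and 0.399 to 11.8 and 20.5 (5.16), Ndc80 from 1.87 and 1.07 to 19.6 and 23.6 (3.93) and Kif14, a motor of cytokinesis, from 0.0763 and 0.109 to 5.96 and 8.59 (log2 fold change 6.24, standard error 0.24, adjusted p = 5.59e-10). Kif20a (4.84) and Cenpf (6.00) rose as well. Cenpa, the histone H3 variant of centromeres, was not DE (21.8 and 10.5 RPKM at 3 h and 20.6 and 39.98 RPKM at 33 h, adjusted p = 0.144), and its replicates lay apart at both times. It gained a call under 4 of 15 alternatives. Of 22 genes for condensins, cohesins and topoisomerase II, 10 rose and 3 fell (median 0.36, or 0.64 with library size alone). Top2a had 10.1 and 7.79 RPKM at 3 h and 148 and 189.9 RPKM at 33 h (log2 fold change 4.24, standard error 0.17, adjusted p = 1.004e-09) and condensin subunit genes Ncapg (0.844 and 0.728 to 26.9 and 35.8 RPKM, 5.33) and Smc2 (10.6 and 9.83 to 33.6 and 41.3, 1.88) rose. The cohesin ring gene Rad21 (83.4 and 62.6 RPKM at 3 h and 70.4 and 81.8 RPKM at 33 h) and Ctcf (76.2 and 67.2 RPKM at 3 h and 72.02 and 71.8 RPKM at 33 h), its partner at loop anchors, were not DE (0.06 and 0.00). Those that fell serve cohesin: Nipbl (-0.83) and Mau2 (-0.85), the loader, and the acetyltransferase Esco1 (-1.24). The calls of the loader genes were lost under 6 and 5 of 15 alternatives.

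Of 36 genes for homologous recombination, the Fanconi pathway and damage checkpoints, 29 rose and 1 fell (median 3.16). Fancd2 had 0.338 and 0.309 RPKM at 3 h and 11.3 and 12.96 RPKM at 33 h (log2 fold change 5.24, standard error 0.17, adjusted p = 2.005e-10) and Brca1 1.14 and 0.904 RPKM at 3 h and 12.1 and 12.1 RPKM at 33 h (3.59). Chek1, the replication checkpoint kinase, had 0.739 and 0.8699 RPKM at 3 h and 16.1 and 16.1 RPKM at 33 h (4.30), and Atm 3.6998 and 5.07 RPKM at 3 h and 19.98 and 17.3 RPKM at 33 h (2.08). Rbbp8 (CtIP), which starts resection, was the member that fell (27.2 and 23.4 to 12.996 and 13.4 RPKM, -0.94), a call lost under 1 of 15 alternatives. Of 57 replication-dependent histone genes 45 rose and 2 fell, with a median of 3.57. Their messages end in a stem-loop without poly(A), and these libraries were made from polyA RNA, so the levels are those of a minor form and cannot stand for the histone supply. H3c3 had 0 and 3 counts at 3 h and 883 and 716 at 33 h, a ratio of 277-fold (exact 95% interval 94.7 to 1346). H4c12 and H4c6, with 0 counts at 3 h, were at least 10.8-fold and 7.28-fold higher (against 3 counts over the stage), and with both at that bound the list median was 3.48. H2ac8 went from 0.158 and 0.513 to 7.005 and 11.5 RPKM (4.58). A minimum of 10 counts in each of the 12 libraries left 8 of the 57 genes, of which 3 rose and 2 fell, with a median of 0.37. That filter drops members for being near 0 at 3 h. H2ac18 (28.9 and 47.9 to 5.04 and 4.79 RPKM, -2.97) and its near-identical copy H2ac19 (-2.92) were those that fell. Histone genes share sequence, and their reads can be split between copies.

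Of 69 nuclear genes for the respiratory chain and ATP synthase, 32 were higher and none lower, with a median of 0.70 (17 with DESeq2's Wald test, 21 without 33 h replicate 2 and 49 with library size alone). The shift lay in the earlier step, where 27 rose from 3 h to 10 h (17.4% of all tested genes did), with medians of 0.62 up to 10 h and 0.04 from then to 33 h. Atp5g1, for the c ring of ATP synthase, had 15.1 and 13.8 RPKM at 3 h and 34.2 and 44.96 RPKM at 33 h (log2 fold change 1.46, standard error 0.15, adjusted p = 3.32e-05), whereas Cox5a (211 and 217 RPKM at 3 h and 255 and 291 RPKM at 33 h, 0.35), Sdhb (0.60) and Cycs (0.24) did not pass. Of 26 glycolysis genes 13 rose and 2 fell (median 0.85, or 0.56 without 33 h replicate 1 and 0.52 with all libraries thinned to the smallest). Ldha, for lactate dehydrogenase, had 393 and 437 RPKM at 3 h and 631 and 797 RPKM at 33 h (0.78, a call lost under 5 of 15 alternatives), Pfkp 21.8 and 24.2 RPKM at 3 h and 39.7 and 47.8 RPKM at 33 h (0.93) and the low Pfkm 0.4203 and 0.398 RPKM at 3 h and 4.52 and 4.03 RPKM at 33 h (3.39). The glucose transporter Slc2a1 (24.2 and 16.7 RPKM at 3 h and 15.6 and 18.7 RPKM at 33 h) and hexokinase Hk2 (19.7 and 16.6 RPKM at 3 h and 9.08 and 12.2 RPKM at 33 h) were not DE, and Hif1a fell (-0.91, lost under 1 of 15 alternatives). Hk2 gained a call under 4 of 15 alternatives.

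Of 39 sterol and fatty acid genes 9 rose and 11 fell (23.1% and 28.2%, against 23.7% and 19.2% of all tested genes), with a median of -0.27. With library size alone 5 fell and the median was 0.00, and without 3 h replicate 2 it was -0.10. Hmgcs1, of cholesterol synthesis, went from 122 and 206 to 57.1 and 52.2 RPKM (log2 fold change -1.58, standard error 0.19, adjusted p = 0.000184) and remained above its naive mean of 12.6. The efflux pump genes fell furthest, Abca1 from 17.1 and 11.7 to 0.249 and 0.1696 RPKM (-6.06) and Abcg1 from 16.3 and 7.73 to 1.98 and 1.64 (-2.72), both below naive means of 25.7 and 27.04. Desaturase genes rose, Scd2 from 11.1 and 14.2 to 47.9 and 50.5 (1.96) and Fads2 from 0.148 and 0.501 to 16.5 and 13.7 (5.37). Of 38 proteasome genes 6 rose (15.8%, below the 23.7% of all tested genes) and none fell (19.2% of all tested genes did). The median was 0.32, or 0.59 with 10 higher with library size alone. Psmb9, an interferon-inducible subunit, had 22.1 and 27.9 RPKM at 3 h and 142 and 144 RPKM at 33 h (2.50), and the constitutive Psmb5 112 and 128 RPKM at 3 h and 134 and 156 RPKM at 33 h (0.27). Of 19 heat shock and stress genes 4 rose and 5 fell (21.1% and 26.3%, against 23.7% and 19.2% of all tested genes), with a median of -0.01 (-0.08 to 0.27 over the alternatives). Gadd45g went from 43.6 and 26.2 to 0.526 and 0.317 RPKM (-6.29), and the mitochondrial chaperonin gene Hspe1 from 90.9 and 96.5 to 254 and 298 (1.56).

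Interferon-stimulated genes were higher at 33 h, 33 of 46 with 1 lower, at a median of 2.18. Herc6, an ISG15 ligase gene, had 0.454 and 0.541 RPKM at 3 h and 12.4 and 11.2 RPKM at 33 h (log2 fold change 4.55, standard error 0.23, adjusted p = 5.32e-09), between which lay its naive mean of 5.13 RPKM. Isg15, a ubiquitin-like modifier, had 48.3 and 36.6 RPKM at 3 h and 134 and 127 RPKM at 33 h (1.63), above its naive mean of 8.46, and Gbp2 11.1 and 16.04 RPKM at 3 h and 47.02 and 42.8 RPKM at 33 h (1.72). Irf7 (1.93) lost its call under 3 of 15 alternatives, and Ifit3 (0.865 and 4.21 RPKM at 3 h and 9.48 and 6.096 RPKM at 33 h) was not DE (adjusted p = 0.0932). Ifit3 gained a call under 3 of 14 alternatives. Cxcl10 fell (9.27 and 11.3 to 3.51 and 3.24 RPKM, -1.61). The 3 h libraries differed for this list, replicate 1 being the higher for 9 of 46 genes (median log2 ratio of replicate 1 to 2, -0.45). The 33 h libraries differed too, replicate 2 being the higher for 4 of 46 (median log2 ratio of replicate 2 to 1, -0.41). Without 3 h replicate 1 the list median was 1.86, and without 3 h replicate 2 it was 2.83.

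Of 25 B cell identity factors 5 rose and 7 fell (20% and 28%, against 23.7% and 19.2% of all tested genes), with a median of -0.12 (0.15 with library size alone). Pax5 had 164 and 225 RPKM at 3 h and 168 and 123 RPKM at 33 h and was not DE (-0.42, adjusted p = 0.856). Spib (625 and 532 to 243 and 176 RPKM, log2 fold change -1.47, standard error 0.13, adjusted p = 7.19e-06), Irf8 (441 and 463 to 195 and 165, -1.33) and Bcl6 (50.8 and 48.5 to 9.91 and 6.999, -2.55) fell, and Ebf1 fell by less (-0.88, a call lost under 2 of 15 alternatives). Bach2 (40.7 and 25.8 RPKM at 3 h and 22.03 and 17.2 RPKM at 33 h) and Foxo1 (56.2 and 58.7 RPKM at 3 h and 38.6 and 30.05 RPKM at 33 h) did not pass. The related genes Id2 and Id3 parted. Id2 fell from 29.3 and 35.6 to 6.18 and 8.97 RPKM (-2.11). Id3 rose from 39.9 and 29.7 to 67.5 and 60.5 (0.89, lost under 4 of 15 alternatives). Mef2b rose from 3.74 and 4.06 to 46.6 and 63.6 (3.81), and Hhex from 4.28 and 2.97 to 33.7 and 24.5 (3.04) against a naive mean of 110.3. Cd22, an inhibitory coreceptor, rose from 38.2 and 40.1 to 238 and 171 RPKM (2.38), while Ms4a1 (514 and 549.6 RPKM at 3 h and 704 and 574 RPKM at 33 h), for CD20, was not DE.

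More genes of the antibody-secreting state rose than fell. Of 36 tested, 16 rose and 6 fell (44.4% and 16.7%, against 23.7% and 19.2% of all tested genes). The list median was 0.52, or 0.42 without 3 h replicate 2 and 0.80 without 3 h replicate 1 or with library size alone. Prdm1, for BLIMP-1, rose from 1.398 and 1.66 to 6.42 and 11.5 RPKM (log2 fold change 2.53, standard error 0.25, adjusted p = 1.68e-05) and Xbp1 from 28.6 and 56.3 to 109 and 168 (1.70). Irf4, needed both for expansion and for plasma cells, fell from 709 and 519 to 73.3 and 102 (-2.81) and stayed above its naive mean of 53.2. Of endoplasmic reticulum genes, Mzb1 had 80.2 and 71.5 RPKM at 3 h and 397 and 588 RPKM at 33 h (2.70) and Sdf2l1 4.68 and 6.16 RPKM at 3 h and 73.5 and 102 RPKM at 33 h (3.98), while Hspa5 (BiP) was not DE at 647 and 697 RPKM at 3 h and 515 and 670.2 RPKM at 33 h (-0.18). At 33 h replicate 2 was the higher for 31 of the 36 genes, by a median of 0.37. Jchain fell (18.9 and 23.6 to 7.22 and 9.43 RPKM, -1.37, lost under 5 of 15 alternatives). Of 31 genes for class switching and somatic mutation 10 rose and 2 fell (32.3% and 6.45%, against 23.7% and 19.2% of all tested genes). Their median was 0.51, or 0.77 with library size alone. Ung (33.2 and 36.1 RPKM at 3 h and 44.7 and 40.1 RPKM at 33 h) and Apex1 (102 and 111 RPKM at 3 h and 62.1 and 69.1 RPKM at 33 h), which excise uracil and cut the abasic site, were not DE.

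Of 12 immunoglobulin genes, which were the constant genes and Jchain, 5 rose and 2 fell (median 0.73). Without 33 h replicate 2 the median was 0.43, without 3 h replicate 1 the number higher was 3, and with library size alone it was 8. Ighm had 4425 and 3591 RPKM at 3 h and 5366 and 6890 RPKM at 33 h (0.61, adjusted p = 0.346) and Ighd 1288 and 1291 RPKM at 3 h and 473 and 246 RPKM at 33 h (log2 fold change -1.84, standard error 0.25, adjusted p = 0.00051). The γ genes were low, Ighg3 at 0.882 and 1.695 RPKM at 3 h and 8.56 and 13.8 RPKM at 33 h (3.01) and Ighg2b at 2.24 and 2.26 RPKM at 3 h and 18.2 and 25.7 RPKM at 33 h (3.28), and since they resemble each other closely, reads can be split among them. Igkc was not DE (0.15). Of 18 MHC class II genes 9 fell and 1 rose (median -0.81, or -0.53 with library size alone). H2-Aa had 6308 and 6791 RPKM at 3 h and 1574 and 1174 RPKM at 33 h (log2 fold change -2.25, standard error 0.13, adjusted p = 6.67e-08), H2-Ab1 5096 and 5011 RPKM at 3 h and 1216 and 933 RPKM at 33 h (-2.23) and the invariant chain gene Cd74 17017 and 14222 RPKM at 3 h and 6485 and 4983 RPKM at 33 h (-1.45). The net change hides a turn, since 10 fell and none rose from 3 h to 10 h and 9 rose and none fell from 10 h to 33 h. At 10 h H2-Aa stood at 619 and 496 RPKM, below both 33 h libraries. Their activator gene Ciita had 17.5 and 28.5 RPKM at 3 h and 39.3 and 26.03 RPKM at 33 h and was not DE (0.50), and Marchf1, for a ligase that removes class II from the surface, rose (1.56).

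Survival genes were split evenly, 7 of 19 in the BCL2 family higher and 7 lower (36.8% each way, against 23.7% and 19.2% of all tested genes). The list median was -0.28, or -0.01 with library size alone. Of the protectors, Bcl2l1 (BCL-XL) went from 435 and 356 to 26.3 and 33.6 RPKM (log2 fold change -3.73, standard error 0.17, adjusted p = 5.14e-09) and Mcl1 from 433 and 348 to 189 and 158 (-1.17), while Bcl2 rose from 2.93 and 4.35 to 13.6 and 11.3 (1.77) against a naive mean of 19.5. Of the killers, Bcl2l11 (BIM) fell from 63.9 and 61.002 to 13.8 and 13.7 (-2.18) and Bmf from 16.4 and 24.2 to 4.47 and 3.36 (-2.37), and Bbc3 (PUMA) was not DE (16.1 and 21.9 RPKM at 3 h and 17.1 and 14.3 RPKM at 33 h), with 49.7 RPKM at 10 h on average. Bik, another killer, was the largest rise of the list but low. It had 1 and 1 counts at 3 h and 19 and 9 at 33 h, a ratio of 7.28-fold (exact 95% interval 1.84 to 63.1). Its call was lost under 4 of 12 alternatives. Of 28 genes of quiescence and homing, 8 fell (28.6%, against 19.2% of all tested genes) and none rose (23.7% of all tested genes did). The list median was -0.31, or -0.03 without 33 h replicate 2, -0.48 without 33 h replicate 1 and -0.04 with library size alone. Btg1, an antiproliferative gene, had 261 and 227 RPKM at 3 h and 23.8 and 17.3 RPKM at 33 h (log2 fold change -3.57, standard error 0.14, adjusted p = 7.94e-10), Klf3 35.8 and 27.4 RPKM at 3 h and 12.5 and 9.48 RPKM at 33 h (-1.52), and Ccr7, the lymph node homing receptor, 1056 and 1067 RPKM at 3 h and 85.9 and 57.3 RPKM at 33 h (-3.89). Klf2 (98.6 and 63.5 RPKM at 3 h and 106 and 68.6 RPKM at 33 h), S1pr1 (9.77 and 10.7 RPKM at 3 h and 19.2 and 10.8 RPKM at 33 h) and Txnip (18.2 and 24.1 RPKM at 3 h and 18.01 and 13.96 RPKM at 33 h), with naive means of 498, 159.8 and 199 RPKM, were not DE between 3 h and 33 h.

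The 10 largest falls and 10 largest rises, taken from DE genes whose log2 CPM averaged 5 or more, held several genes outside the lists. Gng4, for a G protein γ subunit, had 1234 and 2734 counts at 3 h and 1 and 0 counts at 33 h, a level 7629-fold lower (exact 95% interval 1369 to 301400). Its naive mean was 0.03297 RPKM, and at 10 h it had 0.399 and 0.677 RPKM. Zbtb46, a zinc finger factor best known from dendritic cells, had 28.1 and 17.2 RPKM at 3 h and 0.264 and 0.291 RPKM at 33 h (log2 fold change -6.35, standard error 0.30, adjusted p = 3.55e-09), and Kdm6b, a demethylase of histone H3 lysine 27, 261 and 181 RPKM at 3 h and 7.64 and 7.901 RPKM at 33 h (-4.83). Marcks, a substrate of protein kinase C, went from 152 and 157 to 5.55 and 5.49 RPKM (-4.81), Zhx2 from 141 and 103 to 4.896 and 3.87 (-4.79) and Dnase1l3, a secreted nuclease, from 27.7 and 21.8 to 0.992 and 0.832 (-4.75). Of the 10 largest rises, 9 were in the lists above, and the other was Pclaf, a partner of PCNA, at 1.66 and 2.02 RPKM at 3 h and 147 and 183 RPKM at 33 h (log2 fold change 6.46, standard error 0.19, adjusted p = 1.28e-10).

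The net change can be set beside its steps, which share the 10 h libraries with each other and so are given side by side. From 3 h to 10 h, 17.4% of tested genes rose and 13.4% fell, and from 10 h to 33 h 10.1% rose and 4.45% fell. Immediate early genes had medians of -2.29 and -0.06 over the steps, NF-κB genes of -1.10 and -0.32 and surface genes of -1.48 and -0.70. Replication genes had medians of 0.87 and 1.59, with 30 and 49 of 59 higher. Mitotic genes had 1.21 and 3.21, with 27 and 43 of 49 higher, and histone genes -0.14 and 3.66, with 1 and 46 of 57 higher. The histone values carry the limits given above, polyA RNA and members near 0 counts at 3 h. The falls of these lists lay mostly before 10 h, and the rises of replication and mitotic genes had begun by then but were larger afterwards. Interferon-stimulated genes, at 1.65 and 0.59, had most of their rise before 10 h, and MHC class II genes turned (-1.84 and 0.75).

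**Figure D4:**
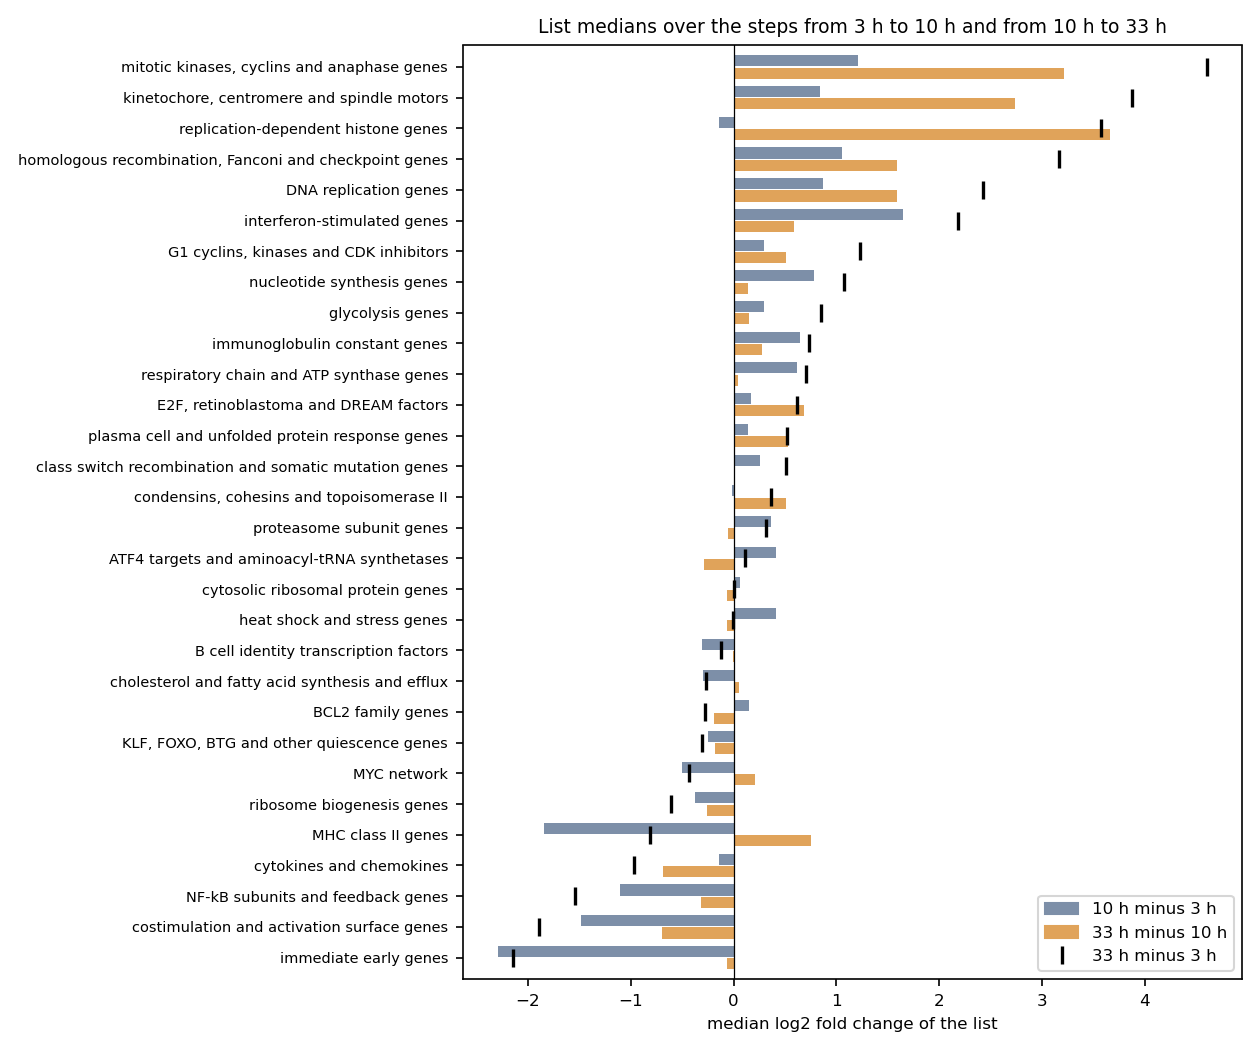
Median log2 fold change (x axis) of 30 gene lists from 3 h to 10 h (blue-grey bars), from 10 h to 33 h (orange bars) and from 3 h to 33 h (black ticks). Immediate early genes fell almost wholly in the earlier step (-2.29 against -0.06), histone genes rose in the later one (-0.14 against 3.66), and MHC class II genes changed sign between them. Histone values are of polyA RNA, with some members near 0 counts at 3 h.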

How the data were processed

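RNA-Seq was of polyA RNA from 12 libraries. The authors prepared TruSeq libraries, sequenced 81 bp paired-end reads, aligned them to mm10 with Rsubread and counted Entrez genes with featureCounts; the deposited values are raw counts with exon lengths, neither normalized nor filtered. Strand, and whether a pair counted once or as 2 reads, are not given in the sources used here. Symbols and coordinates came from RefSeq (GRCm38.p6, 25275 of 27179 IDs matched). Mitochondrial, ribosomal RNA, X and Y, variable immunoglobulin and unmatched genes were removed, which left 23700, and filterByExpr kept 12750.

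R 4.3.3 with edgeR 4.0.16 fitted all 12 libraries in a one-way layout (TMM, robust quasi-likelihood, glmTreat against 1.5-fold, Benjamini-Hochberg at 0.05). DESeq2 1.42.0 and the alternatives below were tried. The steps were tested on simulated data. The genes and lists were chosen with earlier results of these data known: the 3 landmarks, genes picked from each list, the 10 largest changes each way, each list's largest call each way and up to 5 members called against its majority. Of 35 lists, some share genes. Replicates are biological per the labels. Some named genes are not reported here.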

Additional observations from a re-analysis of the deposited data

How the results depend on the processing

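The 5478 DE genes ranged from 4252, with a minimum of 10 counts in each library, to 5773 with the removed classes kept. Leaving out 1 library at a time gave 4905 to 5513. DESeq2's Wald test called 4299 (2312 up, 1987 down). For 3 h to 10 h, library size alone gave 3432 up and 1004 down in place of 2221 and 1711, and DESeq2's Wald test gave 1396 up. For 10 h to 33 h the Wald test gave 272 down in place of 567, and leaving out 1 library gave 357 (without 10 h replicate 2) to 479 down, with 371 without 33 h replicate 2. Replicate deviations at 3 h and 33 h correlated at 0.01, so no shift common to replicates of the same number was seen. With 2 libraries a stage, this cannot tell whether those replicates shared mice or a culture. With the replicate block 5425 genes were DE (3001 up, 2424 down). At 3 h and 10 h the deviations correlated at -0.14. The crossed pairing, added after the data were seen, gave 3632 in a fit of those 4 libraries alone, which without a block gave 3164 (3932 over 12 libraries). Of 266 named genes 203 were DE; 29 of these lost the call under 1 or more alternatives, 24 others gained one, and none changed sign while DE. Depth limits genes near 3 counts, and reads shared between histone, γ constant, ribosomal protein or class II copies may be split.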

Other observations

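Genes left out of the main fit were measured in a fit that kept them. Of 445 tested genes on the X and Y chromosomes, 100 rose and 61 fell from 3 h to 33 h, with a median log2 fold change of 0.18. In the main fit 23.7% of all tested genes rose and 19.2% fell. Among those that rose were replication and mitosis genes. Pola1, the catalytic subunit of DNA polymerase α, had 2.39 and 1.76 RPKM at 3 h and 22.4 and 26.4 RPKM at 33 h (log2 fold change 3.57), Kif4, a chromosome motor, 0.998 and 0.879 RPKM at 3 h and 16.3 and 21.1 RPKM at 33 h (log2 fold change 4.33), and Cenpi, of the inner kinetochore, 0.420 and 0.451 RPKM at 3 h and 7.39 and 8.47 RPKM at 33 h (log2 fold change 4.17). Il2rg, the shared γ chain of cytokine receptors, fell, with 564 and 509 RPKM at 3 h and 145 and 128 RPKM at 33 h (log2 fold change -1.98). Sat1, which acetylates polyamines, had 109 and 38.2 RPKM at 3 h and 6.10 and 6.73 RPKM at 33 h (log2 fold change -3.51), and its 3 h replicates lay far apart. Tsc22d3 (GILZ), a glucocorticoid and FOXO target, had 14.7 and 6.83 RPKM at 3 h and 1.95 and 1.40 RPKM at 33 h (log2 fold change -2.65). These genes were chosen after their values were seen.

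Of 232 tested variable immunoglobulin segments 34 rose and 2 fell, with a median of 0.56 (23.7% of all tested genes rose and 19.2% fell in the main fit). The 15 mitochondrial genes had a median of -0.54 and adjusted p-values of 0.0867 or more in edgeR's glmTreat, so that no fall of theirs passed the test. COX1 had 15832 and 20857 RPKM at 3 h and 13187 and 9246 RPKM at 33 h (log2 fold change -0.71) and ND5 3482 and 4943 RPKM at 3 h and 2867 and 1797 RPKM at 33 h (log2 fold change -0.85). Mitochondrial genes took 5.68% and 8.47% of the counts at 3 h and 6.89% and 4.94% at 33 h, so that the replicates differed by as much as the stages.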
